A study of Mus musculus with 12 samples.

Results

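Livers of mice given phloridzin during repeated CCl4 exposure were set against livers of control mice that received no CCl4, which asks what still differed from healthy liver under the drug. The members were taken from the sample labels and not from measured values: 3 phloridzin livers and 3 control livers, 6 of the 12 livers sequenced. All were from male C57/BL6N mice, whose age is not given. Carbon tetrachloride (CCl4), a solvent that hepatocytes convert into a toxic radical, was injected in olive oil at 5 mL/kg, 2 times a week over 8 weeks, and phloridzin was given from week 5 on. The labels name phloridzin treatment with no dose, and the study's text assigns the sequenced group to its highest dose, 40 mg/kg. No source states whether control mice received olive oil, so effects of CCl4, oil and phloridzin cannot be told apart in this comparison. Of the other 6 livers, 3 were from mice with CCl4 alone and 3 from mice with CCl4 and silibinin. Values of the livers with CCl4 alone stand beside some of the genes described, and since those comparisons share control or phloridzin livers they are given side by side only.

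Phloridzin is a plant glucoside known as a blocker of the sodium-glucose cotransporters. Repeated CCl4 injury kills hepatocytes around the central veins, where Cyp2e1 activates the solvent, and stellate cells then turn into myofibroblasts that lay down fibrillar collagen while macrophages gather along the scars. Hepatocytes differ along the lobule: pericentral cells make glutamine and metabolise foreign compounds, and periportal cells make urea and glucose.

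Total RNA was sequenced, and the authors deposited values for 169430 transcripts in every liver, read here as FPKM, fragments scaled to transcript length and library size. The steps between the values gave 105.2, 108.4 and 109.6 M fragments for the control libraries and 102.1, 104.7 and 98.5 M for the phloridzin libraries. Transcript values were summed over each gene symbol and the livers were scaled by median ratios, which gave the scaled FPKM used throughout. Differences are log2 fold changes of scaled FPKM + 1, phloridzin minus control, which understate the change of genes with low values. A gene was called differentially expressed (DE) at an adjusted p under 0.05 by limma when its log2 fold change also lay beyond 1 in either direction, and "rose" and "fell" are used of DE genes only. Transcripts without a gene symbol held 34.2% of the summed FPKM of the table and entered no gene value, so a gene's level can move with fragments assigned to them. The 18991 transcripts assembled by the authors summed to 138000, 164000 and 191000 scaled FPKM in the control livers and to 94500, 93500 and 95500 in the phloridzin livers, and their part in the gene values was not tested. Tested on their own, 22 of 23465 transcripts without a symbol were higher in the phloridzin livers (0.0938%) and 40 were lower (0.17%).

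The tissue label held in the data. Albumin (Alb), the main secreted protein of hepatocytes, measured 12200, 17100 and 13700 in the control livers and 17300, 23500 and 17300 in the phloridzin livers. It was abundant in all 6 livers, and its difference of 0.43 did not pass the test (adjusted p = 0.62). The 28 hepatocyte markers summed to between 40800 and 44500 in the control livers and to 33200, 50100 and 43200 in the phloridzin livers, and 0 of 28 were DE. The list's median log2 fold change was -0.16, but 0.03 with FPKM left unscaled and 0.12 without phloridzin liver 1, so its sign is not settled. Of 12 markers of pancreas, fat, muscle and stomach, 6 were at 0 in all 6 livers, and the most abundant, Cela1, measured between 6.49 and 12.5.

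One phloridzin library stood apart from the other 2. Phloridzin liver 1 scored 37.9 on the third principal component against -24.2 and -24.0 for phloridzin livers 2 and 3, and its mean correlation with them over genes was 0.92. Over the 32 proliferation genes its median lay 2.53 above the control mean on the log2 scale, against 0.82 and 0.60 in the other 2. Interferon-stimulated genes (24 tested) gave 1.88 against 0.17 and 0.04, and targets of the oxidative stress factor NRF2 (27 tested) gave 1.25 against 0.22 and 0.05. In the opposite direction, the 20 periportal genes gave -0.71 in phloridzin liver 1 and 0.54 and 0.50 in livers 2 and 3. Liver 1 was thus the high one for cell division, interferon and oxidative stress genes and the low one for periportal genes. Results that rest on this liver are given with and without it.

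Of 13123 genes tested, 281 (2.14%) were DE between phloridzin with CCl4 and control. They were mostly higher: 223 genes (1.7%) rose and 58 (0.442%) fell, and in all 281 the 3 phloridzin livers did not overlap with the 3 control livers. These shares are the background for the counts given for each gene list, and a short list with 0 or 1 DE members does not stand out from them. Over all genes tested, 17.6% were higher and 8.82% lower in every phloridzin liver than in every control liver, and the median log2 fold change was 0.04. At an unadjusted p under 0.05 there were 2796 genes, and 825 passed the adjusted p at any fold. Without phloridzin liver 1, 156 of 13058 genes (1.19%) rose and 46 (0.352%) fell. The same fit gave 610 genes up and 346 down for CCl4 alone minus control. The counts also moved with other livers: there were 172 DE genes without control liver 1, 175 without control liver 2, 248 without control liver 3 and 439 without phloridzin liver 3, against 202 without phloridzin liver 1. With only the 6 livers in the fit there were 97, and the list counts were lower too: 7 of 24 fibrillar matrix genes, 3 of 18 for cross-linking and turnover and 3 of 20 scar-associated macrophage genes rose, and 2 of 21 major urinary proteins fell.

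**Figure D1:**
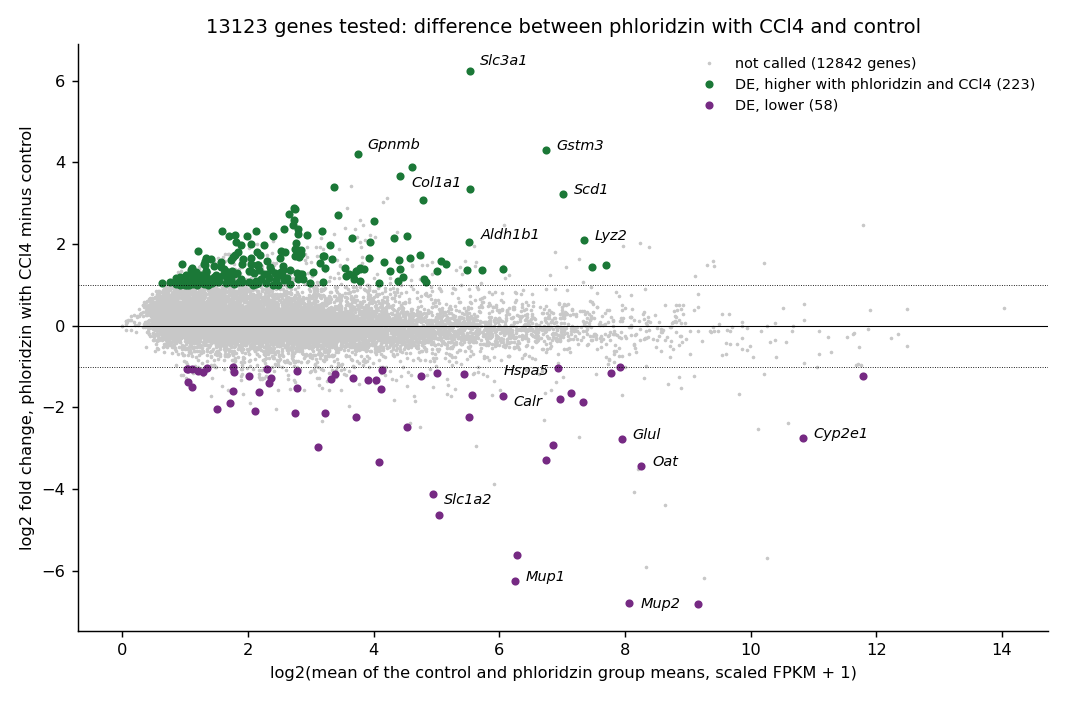
Each point is 1 of 13123 genes, with its mean level over the control and phloridzin groups (log2 of scaled FPKM + 1) on the horizontal axis and its log2 fold change, phloridzin with CCl4 minus control, on the vertical axis; dotted lines mark 1 and -1. The 223 DE genes above 0 include Slc3a1 at 6.25 and Gpnmb at 4.21, and the 58 below 0 include Mup2 at -6.79 and Glul at -2.78.

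Fibrillar collagen and interstitial matrix genes stayed high under phloridzin: 10 of 24 rose and 0 fell, where 1.7% of all genes rose. Their median log2 fold change was 1.00 against 0.04 over all genes, and 21 of the 24 were higher in every phloridzin liver than in every control liver. Col1a1, a chain of type I collagen, the main scar collagen, measured 1.85, 1.14 and 1.77 in the control livers and 77.8, 22.6 and 17.8 in the phloridzin livers. Col3a1, the chain of type III collagen, measured 4.42, 3.52 and 4.49 against 89.3, 33.3 and 25.1. Both groups were far apart for both genes, and phloridzin liver 1 was the highest by more than the range of the other 2. The log2 fold changes were 3.67 (SE 0.53, adjusted p = 0.005) for Col1a1 and 3.08 (SE 0.44, adjusted p = 0.005) for Col3a1.

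Lumican (Lum), a proteoglycan that spaces collagen fibrils, was more even: 4.24, 2.91 and 3.70 in the control livers and 30.8, 27.2 and 21.3 in the phloridzin livers. It rose by 2.57 (SE 0.32, adjusted p = 0.0037), and the 3 phloridzin livers lay close together. Col6a3, a chain of the beaded filament collagen VI, rose by 2.02 (adjusted p = 0.0052), and Col6a2, Sparc, Eln, Postn, Thbs2 and Col5a2 rose by between 1.01 and 1.98. In bulk tissue, more or fewer cells of a type and more or less RNA per cell cannot be told apart. The list still had 10 DE members, with a median of 0.91, when phloridzin liver 1 was left out. In the livers with CCl4 alone Col1a1 measured 40.7, 33.2 and 54.0 and Lum 16.7, 19.0 and 27.0, and neither gene differed between phloridzin and CCl4 alone past the threshold (-0.39, adjusted p = 0.68, and 0.34, adjusted p = 0.54). The list's median difference between phloridzin and CCl4 alone was -0.08.

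Other matrix genes did not pass the test. Fibronectin (Fn1), which hepatocytes also secrete into plasma and which was the most abundant gene of the list, measured 564, 407 and 596 in the control livers and 219, 284 and 456 in the phloridzin livers. These groups overlapped, and the difference of -0.76 did not pass the test (adjusted p = 0.14). Of 12 basement membrane genes 0 were DE, though 7 were higher in every phloridzin liver than in every control liver (17.6% of all genes were), and the median was 0.46. Col4a1, a chain of the basement membrane collagen IV, was higher in every phloridzin liver at 0.88, short of the cutoff (adjusted p = 0.033).

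Genes that cross-link and remodel matrix followed the fibrillar collagens, with 6 of 18 up (1.7% of all genes were), 0 down and a median of 0.75. Mmp2, the gelatinase of activated stellate cells, measured 1.15, 0.661 and 0.825 in the control livers and 7.94, 7.46 and 7.60 in the phloridzin livers. The 3 phloridzin livers lay close together and far above the controls (log2 fold change 2.21, SE 0.23, adjusted p = 0.0016). Loxl1, which cross-links elastin, rose by 1.55, Timp2, an inhibitor of the matrix metalloproteinases, by 1.31, and Ltbp2, a partner of elastic microfibrils counted in the TGF-beta list, by 2.22 (adjusted p = 0.0019). Ltbp2 was the only riser of the 19 TGF-beta pathway genes, and Inhbe, an activin subunit made by hepatocytes, fell by 1.1 (adjusted p = 0.021). Inhbe lost its call without 5 of the 6 livers, each left out alone, and was retained without phloridzin liver 1. When phloridzin liver 1 was left out, the cross-linking list had 4 of 18 up and a median of 0.57.

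Of 18 stellate cell and myofibroblast markers 2 rose (1.7% of all genes did), all 18 had a positive log2 fold change, 9 were higher in every phloridzin liver than in every control liver (17.6% of all genes were), and the median was 0.47. Dermatopontin (Dpt), a collagen-binding matrix protein, rose by 1.89 (adjusted p = 0.0088) and vimentin (Vim), the intermediate filament of mesenchymal cells, by 1.65 (adjusted p = 0.023). The call of Vim was lost without control liver 1 or 2 and without phloridzin liver 1 or 2. Acta2, the actin of myofibroblasts, measured 4.42, 0.301 and 0.725 in the control livers and 2.54, 5.25 and 1.86 in the phloridzin livers, groups that overlapped (0.79, adjusted p = 0.43). Timp1, the inducible metalloproteinase inhibitor, measured 0.12, 0.0917 and 0 against 1.3, 0.133 and 1.22. It was higher in every phloridzin liver but barely so in liver 2, and was not DE (0.75, adjusted p = 0.13).

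Macrophage genes of the scar type were also still raised: 9 of 20 rose (1.7% of all genes did), 0 fell, and the median was 1.3. Gpnmb, a lysosomal glycoprotein of lipid-laden and scar macrophages, measured 0.385, 0 and 0.229 in the control livers and 45.3, 12 and 16.8 in the phloridzin livers. Trem2, a lipid-sensing receptor of the same cells, measured 1.51, 1.00 and 0.159 against 14.4, 7.07 and 5.63. Every phloridzin liver was well above every control liver for both genes, liver 1 highest. The log2 fold changes were 4.21 (SE 0.57, adjusted p = 0.0048) and 2.38 (SE 0.34, adjusted p = 0.0051). Lyz2, the lysozyme of myeloid cells, rose by 2.09 (adjusted p = 0.0098), and Mmp12, the macrophage elastase, by 2.19 (adjusted p = 0.015), the latter not without control liver 1 or 2. With CCl4 alone Gpnmb measured 25.4, 18.7 and 38.9 and Mmp12 8.42, 11.5 and 12.9, against 8.62, 2.02 and 2.63 for Mmp12 with phloridzin. Mmp12 was thus lower with phloridzin than with CCl4 alone in livers 2 and 3 but not in liver 1, and that difference did not pass the test (-1.32, adjusted p = 0.067). The macrophage list had 6 of 20 up and a median of 1.03 without phloridzin liver 1.

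Of 14 resident Kupffer cell markers 0 were DE, 8 were higher in every phloridzin liver than in every control liver, against 17.6% of all genes, and the median was 0.75. With FPKM left unscaled 5 of them were DE, and 3 were without phloridzin liver 3. Their most abundant gene, Cd5l, a secreted protein of resident macrophages, was higher in every phloridzin liver (117 to 175) than in every control liver (62.9 to 111), without passing the test (0.90, adjusted p = 0.072). Of 20 antigen presentation genes 4 rose, all of the class II pathway that dendritic cells, macrophages and B cells use. H2-Eb1 measured 5.93, 8.98 and 6.00 in the control livers and 22.2, 21.1 and 16.6 in the phloridzin livers, evenly above them (1.40, SE 0.19, adjusted p = 0.0048). H2-Aa rose by 1.33, Cd74, the invariant chain, by 1.15 and H2-Ab1 by 1.1. Only 2 of the 20 were DE without phloridzin liver 1, where Cd74 and H2-Ab1 lost their calls, and 2 without control liver 1, control liver 3 or phloridzin liver 2. The pan-leukocyte phosphatase Ptprc rose from 4.96, 6.25 and 7.05 to 17.3, 17.9 and 13.4 (adjusted p = 0.0049), the only riser of 11 lymphocyte markers tested. Vcam1, the adhesion molecule on which leukocytes arrest, rose from 6.87, 8.46 and 4.16 to 22.9, 23.0 and 19.5 (1.65, SE 0.22, adjusted p = 0.0048), and Cxcl16, a membrane-bound chemokine, rose by 1.18 (adjusted p = 0.0098). Those were the 2 risers among 19 cytokine, chemokine and adhesion genes, a count that was 4 without phloridzin liver 3 and 3 without control liver 1. Of 11 monocyte and neutrophil markers, Plac8 and Chil3 rose (1.57 and 1.34), the call of Plac8 being kept only when phloridzin liver 3 was left out, and that of Chil3 only when control liver 3 or phloridzin liver 1 was.

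**Figure D2:**
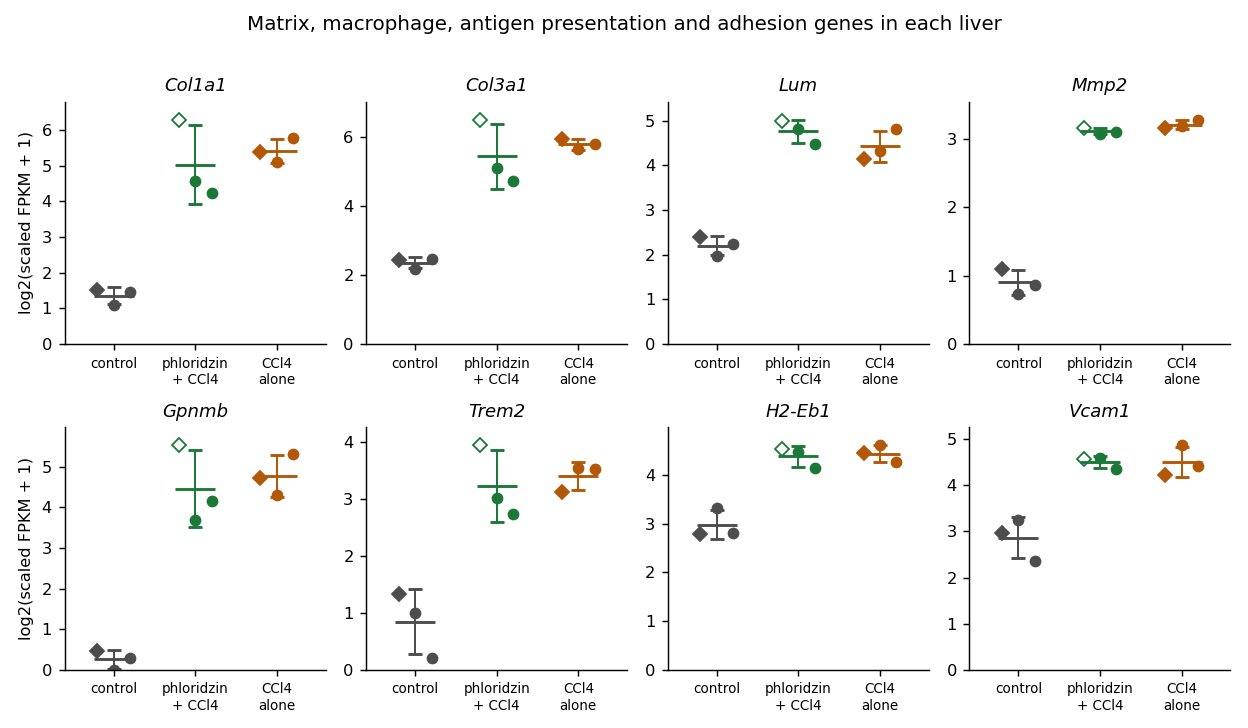
Each panel shows 1 gene as log2 of scaled FPKM + 1 in 3 control, 3 phloridzin with CCl4 and 3 CCl4-only livers; bars are the group mean and SD, diamonds are replicate 1, and the open diamond is phloridzin liver 1. In all 8 panels every phloridzin liver lies above every control liver, with Col1a1 at 17.8 to 77.8 against 1.14 to 1.85 scaled FPKM.

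Of 20 pericentral hepatocyte genes 5 fell and 0 rose, where 0.442% of all genes fell. Glul, the glutamine synthetase of the hepatocytes next to the central vein, measured 502, 329 and 456 in the control livers and 48.4, 80.0 and 57.7 in the phloridzin livers. Oat, the ornithine aminotransferase of the same cells, measured 606, 470 and 582 against 19.9, 71.7 and 84.4. Slc1a2, their glutamate transporter, measured 83.2, 44.4 and 41.4 against 0.0108, 3.81 and 5.53. The groups were far apart for all 3 genes, and phloridzin liver 1 was the lowest in each. Glul fell by 2.78 (SE 0.21, adjusted p = 0.00016), Oat by 3.44 (SE 0.49, adjusted p = 0.005) and Slc1a2 by 4.11 (SE 0.69, adjusted p = 0.0094).

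With CCl4 alone these genes were lower again. Glul measured 27.3, 30.7 and 31.7 there, and Oat 11.1, 14.7 and 15.4. Every phloridzin liver was thus above every liver with CCl4 alone and below every control liver for Glul and Oat, and phloridzin minus CCl4 alone was 1.00 (adjusted p = 0.013) for Glul and 1.79 (adjusted p = 0.04) for Oat. The silibinin livers lay in the same range, at 53.7, 70.2 and 61.5 for Glul and 30.2, 33.9 and 72.7 for Oat. Slc1a2 did not separate in this way, since phloridzin liver 1 lay among the livers with CCl4 alone (0.108, 0.00764 and 0.266).

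Cyp2e1, the cytochrome P450 that activates CCl4 itself, measured 4090, 1510 and 4030 in the control livers, 439, 366 and 507 in the phloridzin livers and 417, 440 and 477 with CCl4 alone. Control liver 2 was well below the other 2 controls, and the phloridzin and CCl4-only livers were at one level. It fell by 2.75 against control (SE 0.41, adjusted p = 0.0056) and differed from CCl4 alone by -0.03 (adjusted p = 0.97). Its fragments were divided over transcripts differently between livers, 1 transcript holding 1350 in control liver 2 and 0.427 and 1.13 in the other 2 controls, and with only the transcript of the highest mean the call was lost. Slc13a3, a dicarboxylate transporter, completed the 5 that fell, at -2.14 (adjusted p = 0.008). The same number fell without each of the 6 livers, but 1 of 20 with only the 6 livers in the fit, and the list's median was -0.29 for phloridzin (-0.16 with FPKM left unscaled) and -0.98 for CCl4 alone. Other members lay near control: Gulo, the last enzyme of vitamin C synthesis, measured 114, 92.1 and 119 against 115, 129 and 102, and Rgn, a calcium-binding lactonase, 326, 333 and 365 against 258, 394 and 314.

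Among 51 cytochrome P450 genes of families 1 to 4, 5 fell and 2 rose, where 0.442% and 1.7% of all genes did. Their median was -0.10, and 0.06 with FPKM left unscaled. Cyp2c37, an arachidonic acid hydroxylase, measured 233, 199 and 147 against 12.6, 27.4 and 18.4, with no overlap (-3.29, SE 0.36, adjusted p = 0.0019). Its neighbours on chromosome 19 Cyp2c54 (-1.80), Cyp2c69 (-1.90) and Cyp2c50 (-1.16, adjusted p = 0.036) also fell. Cyp2c55, on the same chromosome, rose by 1.47 (adjusted p = 0.011). Fragments of such similar genes cannot be assigned with certainty. The calls of Cyp2c54 and Cyp2c69 are fragile, since both were lost without control liver 1 or 2. That of Cyp2c54 was also lost without phloridzin liver 1, and that of Cyp2c69 without phloridzin liver 2 or 3. Of the 51 genes 2 fell without control liver 2, and 3 fell and 1 rose without phloridzin liver 1. Periportal genes did not mirror the pericentral loss. Of 20 tested, 1 rose and 0 fell. The list's median was 0.09, but 0.49 without phloridzin liver 1, -0.12 without liver 2 and -0.11 without liver 3. Cps1, the entry enzyme of the urea cycle, measured 1900, 1820 and 1210 against 933, 1650 and 2150, groups that overlapped (-0.12, adjusted p = 0.87). Ass1, also among the most abundant members, measured 1150, 1340 and 1060 against 862, 1920 and 2470. Phloridzin liver 1 lay below the controls for Ass1 and livers 2 and 3 above them (0.44, adjusted p = 0.51). The riser was Aldh1b1, a mitochondrial aldehyde dehydrogenase, at 19.1, 15.5 and 15.3 in the control livers, 51.4, 73.4 and 95.3 in the phloridzin livers and 27.1, 20.7 and 31.0 with CCl4 alone. The silibinin livers were as high, at 81.3, 80.8 and 87.2. The phloridzin livers lay above control and CCl4 alone without overlap, by 2.04 against control (SE 0.21, adjusted p = 0.0016) and by 1.42 against CCl4 alone (adjusted p = 0.0027).

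Bile acid genes gave 0 DE members of 29 with a median of -0.20, which was -0.01 with FPKM left unscaled and -0.33 without phloridzin liver 2. With FPKM left unscaled or scaled by upper quartile, and without phloridzin liver 2 or 3, 1 member rose. Cyp7a1, the rate-limiting enzyme of the classic synthesis route, measured 40.7, 29.5 and 27.2 in the control livers and 39.6, 138 and 109 in the phloridzin livers. Liver 1 lay within the controls and livers 2 and 3 were above them, and the difference did not pass the test (1.37, adjusted p = 0.29). It was above CCl4 alone (21.2, 3.27 and 20.4) in every phloridzin liver (2.76, adjusted p = 0.03). Cyp7b1, the hydroxylase of the alternative route, measured 200, 142 and 173 against 89.1, 66.8 and 46.6, lower in every phloridzin liver without passing the test (-1.37, adjusted p = 0.12).

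The genes with the largest falls were major urinary proteins, pheromone carriers that male mouse hepatocytes secrete under growth hormone pulses. Mup2 measured 498, 339 and 755 in the control livers and 12.6, 1.67 and 1.61 in the phloridzin livers, and Mup1 measured 121, 113 and 214 against 0.437, 2.53 and 0.322. The groups did not come near each other, and phloridzin liver 1 was higher than livers 2 and 3 for Mup2 but not for Mup1. Mup2 fell by 6.79 (SE 0.58, adjusted p = 0.00047) and Mup1 by 6.26 (SE 0.68, adjusted p = 0.0019). Of 21 Mup genes tested 6 fell (0.442% of all genes did) and 0 rose. Their median was -2.49, and -2.38 for CCl4 alone minus control. The median for phloridzin was -3.85 without control liver 2 and -3.4 without control liver 1. Without phloridzin liver 1, 8 fell, and 3 did with only the transcript of the highest mean per gene. Mup18 and Mup9 fell by 5.62 and 4.64. Mup11 fell by 6.82, from 418, 778 and 2090 to 159, 0.873 and 0.568, with phloridzin liver 1 far above the other 2, and kept its call in no leave-one-out run but that of phloridzin liver 1. The most abundant member, Mup3, fell by 1.22 (adjusted p = 0.049). Without each control liver, and without phloridzin liver 2 or 3, 4 Mup genes fell. Mup1, Mup2, Mup9 and Mup18 were DE in all of these runs, so Mup3 lost its call there.

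The Mup genes of chromosome 4 are nearly identical copies, and how their fragments were divided between copies differed from liver to liver. Mup17, for example, measured 1690 in control liver 1 and 1.19 and 0.281 in the other 2 controls. The sum over the Mup genes of the list does not change with the division among them. It was 10700, 13500 and 18700 in the control livers, 6850, 7400 and 4430 in the phloridzin livers and 4130, 3850 and 3670 with CCl4 alone, in that order without overlap. Transcripts without a gene symbol are left out of this sum, and whether they held Mup fragments was not tested. The more diverged Mup20, a male aggression pheromone, measured 3270, 3930 and 4340 against 3460, 4640 and 2880 with phloridzin and 2140, 1510 and 1450 with CCl4 alone. It overlapped with control (-0.09, adjusted p = 0.89) and lay above every liver with CCl4 alone (1.1, adjusted p = 0.035). The wider list of 22 male-biased liver genes had 1 DE member, Susd4, a complement regulator at low level (-1.07, adjusted p = 0.01), whose call was lost without control liver 2 or phloridzin liver 2, and a median of -0.39.

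**Figure D3:**
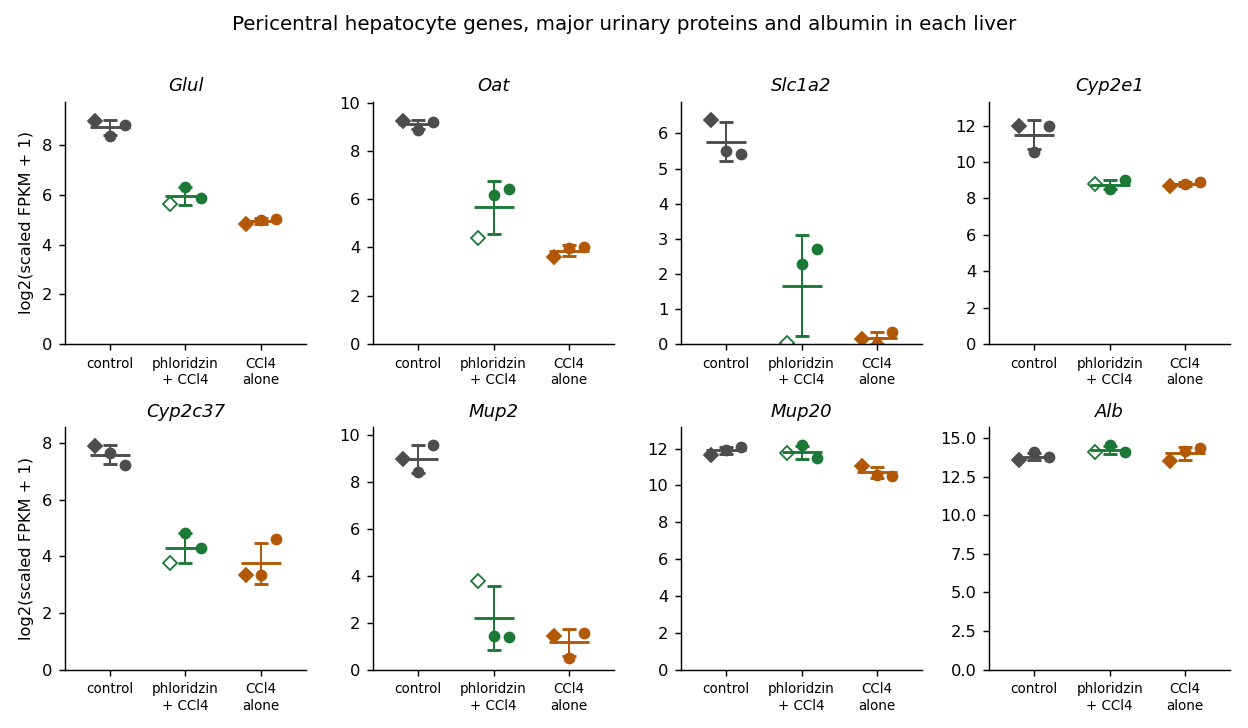
Each panel shows 1 gene as log2 of scaled FPKM + 1 in 3 control, 3 phloridzin with CCl4 and 3 CCl4-only livers; bars are the group mean and SD, diamonds are replicate 1, and the open diamond is phloridzin liver 1. Glul (48.4 to 80.0 scaled FPKM with phloridzin), Oat, Slc1a2, Cyp2e1, Cyp2c37 and Mup2 lie below control in every phloridzin liver, whereas Mup20 overlaps with control and Alb is not lower.

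Genes of protein folding in the endoplasmic reticulum (ER) were mostly lower than control with phloridzin and higher than control with CCl4 alone. Of 28 genes 5 fell and 0 rose, where 0.442% of all genes fell, and 17 of 28 were lower in every phloridzin liver than in every control liver, against 8.82% of all genes. The list's median was -0.53 for phloridzin minus control and 0.80 for CCl4 alone minus control. Hspa5, the main chaperone of the ER lumen and sensor of unfolded protein, measured 144, 194 and 151 in the control livers, 68.6, 86.0 and 80.4 in the phloridzin livers and 413, 465 and 472 with CCl4 alone. Creld2, an ER disulfide isomerase, measured 8.59, 16.4 and 16.2, then 5.28, 5.15 and 5.35, and then 49.0, 66.9 and 46.6. These 3 groups did not overlap for either gene, with phloridzin lowest and CCl4 alone highest. The silibinin livers were as low or lower, at 84.0, 85.8 and 66.6 for Hspa5 and 4.25, 4.33 and 3.88 for Creld2, so the low level is not particular to phloridzin. Hspa5 fell by 1.04 against control (SE 0.16, adjusted p = 0.0066) and Creld2 by 1.18 (SE 0.22, adjusted p = 0.013). Against CCl4 alone the differences were -2.51 (adjusted p = 1.5e-05) and -3.12 (adjusted p = 2.6e-05).

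Calreticulin (Calr), a lectin chaperone of glycoproteins, measured 79.4, 76.6 and 146 in the control livers and 22.1, 25.0 and 43.1 in the phloridzin livers (-1.71, SE 0.34, adjusted p = 0.017). Sdf2l1, a cofactor of Hspa5, fell by 1.32 (adjusted p = 0.0068) and Manf, a secreted ER stress protein, by 1.15 (adjusted p = 0.032). All 3 were lower in every phloridzin liver than in every control liver. Hsp90b1, the ER member of the Hsp90 family, was lower in every phloridzin liver at -0.52 without passing the test (adjusted p = 0.056), and Pdia4, a disulfide isomerase, passed the test below the fold cutoff (-0.79, adjusted p = 0.0083). Of the 28 genes 27 had a negative log2 fold change, the exception being P4hb, a disulfide isomerase that measured 490, 449 and 2.64 in the control livers, the low value of control liver 3 setting its sign. The calls are less steady than the direction: 2 of 28 were DE without phloridzin liver 1, where Hspa5, Calr and Manf lost their calls and the median was -0.47, 2 were DE without control liver 2, and 3 without phloridzin liver 2. With FPKM left unscaled 3 of 28 were DE, with a median of -0.36, and with only the 6 livers in the fit 0 were, with a median of -0.53.

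The promoters of these 28 genes were searched for the ER stress response element in the 250 bases upstream of each RefSeq gene start (GRCm38.p6). The motif was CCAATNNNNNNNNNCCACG on either strand (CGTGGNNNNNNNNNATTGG on the opposite one). Of the 28 genes 24 had an entry, and 10 of these held the motif, against 35 of 27025 genes with an entry (0.13%). Counted by promoter window, it was present in 37 of 32851 (0.113%). The list was written by hand for ER folding, so these shares describe the list and not an effect of phloridzin. The motif was present for 3 of the 4 DE members with an entry and absent for Sdf2l1, which fell. It was also present for members that were not DE, such as Canx (-0.28) and Syvn1 (-0.34). The first base of the motif lay at -162 in Calr, at -126 in Creld2 and at -65 in Hspa5, the last inside a longer Ensembl transcript of that gene. The stretches of Calr (chr8:84847045-84847103, minus strand) and Creld2 (chr15:88819510-88819568, plus strand) are shown 5′ to 3′ on the strand of the gene with the motif in capitals, beside that of Dnajc3 (chr14:118937817-118937875, plus strand), an ER co-chaperone that was lower in every phloridzin liver below the fold cutoff (-0.78, adjusted p = 0.01).
Calr: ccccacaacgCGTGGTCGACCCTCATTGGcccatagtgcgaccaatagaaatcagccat
Creld2: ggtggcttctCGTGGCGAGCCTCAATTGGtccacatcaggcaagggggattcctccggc
Dnajc3: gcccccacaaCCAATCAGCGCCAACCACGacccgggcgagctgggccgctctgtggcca
A match describes the letters of a window, and whether a factor was bound there was not measured.

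By their medians, genes of the integrated stress response, immediate early genes and cytosolic heat shock genes were high with CCl4 alone. These medians lay nearer to control with phloridzin, though not all members were at its level. Atf3, a transcription factor induced by many stresses, measured 0.362, 0.265 and 0.416 in the control livers, 2.96, 1.54 and 1.57 in the phloridzin livers and 37.4, 38.5 and 43.7 with CCl4 alone. It remained slightly above control in every phloridzin liver (1.13, SE 0.22, adjusted p = 0.017), a call lost without phloridzin liver 1, control liver 1 or control liver 2, and was far below CCl4 alone (-3.79, adjusted p = 1.1e-05). The silibinin livers measured 2.43, 2.15 and 1.01 for Atf3, so a level far below CCl4 alone is not particular to phloridzin. Atf3 was the only DE gene of 23 in the integrated stress response and amino acid synthesis list, where 2.14% of all genes were DE. The list's median was 0.14 for phloridzin and 1.48 for CCl4 alone. Not every member was high with CCl4 alone. Cth, the most abundant, measured 408, 431 and 313 in the control livers, 241, 715 and 736 with phloridzin and 139, 120 and 173 with CCl4 alone. The difference of CCl4 alone from control was -1.41 (adjusted p = 0.029) for Cth and 0.12 (adjusted p = 0.86) for Atf5. Cth was higher with phloridzin than with CCl4 alone (1.81, adjusted p = 0.018), and it measured 345, 389 and 637 with silibinin. Slc7a11, the cystine importer that feeds glutathione synthesis, was near 0 in the control livers (0 to 0.0267) and in the phloridzin livers (0.0221 to 0.311) and measured 4.57, 7.65 and 5.4 with CCl4 alone. Sprr1a, a cornified envelope protein induced in injured tissue, was at 0 in the control livers, 0.267, 0 and 0 in the phloridzin livers and 29.6, 53 and 24.7 with CCl4 alone. Neither differed from control past the threshold (0.14, adjusted p = 0.67, and 0.11, adjusted p = 0.83). Sprr1a was also near 0 in the silibinin livers (0.233, 0.257 and 0). Of 18 immediate early genes 1 rose, the same Atf3, and 10 were higher in every phloridzin liver than in every control liver (17.6% of all genes were), with a list median of 0.44 against 1.86 for CCl4 alone, and of 16 cytosolic heat shock genes 0 were DE (median 0.09 against 0.80).

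**Figure D4:**
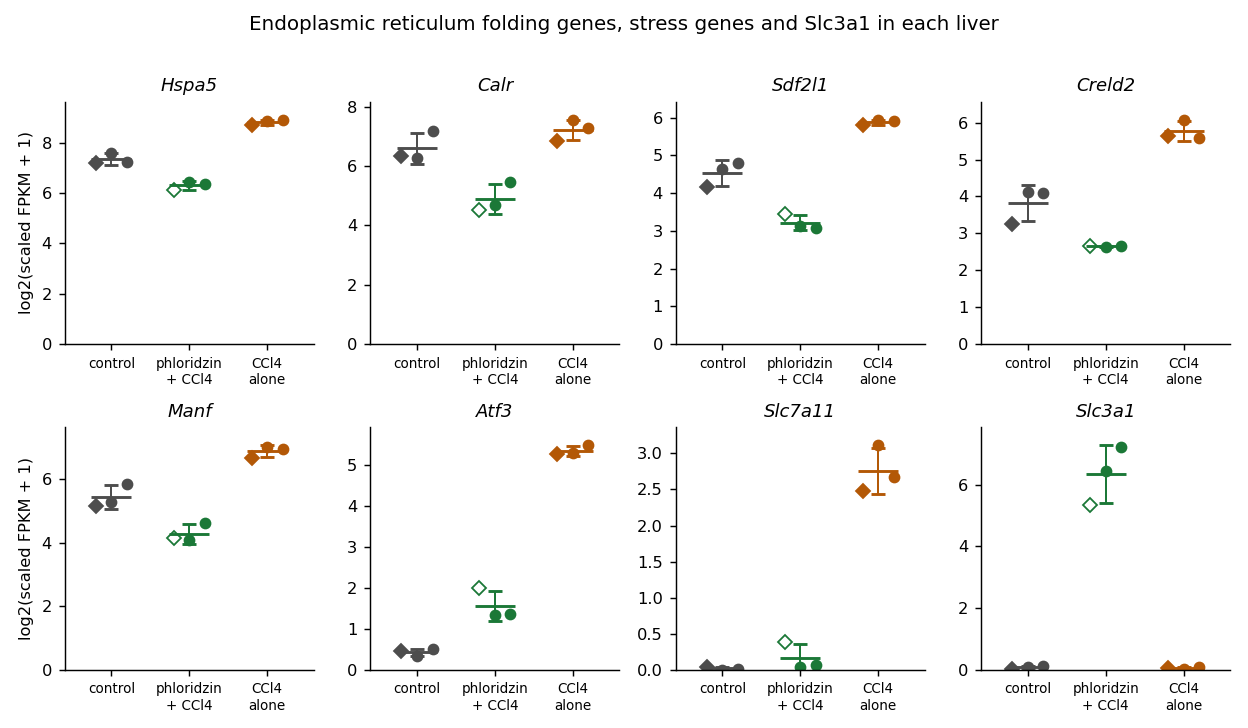
Each panel shows 1 gene as log2 of scaled FPKM + 1 in 3 control, 3 phloridzin with CCl4 and 3 CCl4-only livers; bars are the group mean and SD, diamonds are replicate 1, and the open diamond is phloridzin liver 1. Hspa5, Calr, Sdf2l1, Creld2 and Manf are lower with phloridzin than in the other 2 groups shown (Creld2 at 5.15 to 5.35 scaled FPKM), Atf3 lies a little above control and far below CCl4 alone, Slc7a11 overlaps with control, and Slc3a1 is present only in the phloridzin livers of the 3 groups shown.

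Slc3a1, the heavy subunit of the cystine and dibasic amino acid transporter, had the largest rise of all named genes. It measured 0.0275, 0.0614 and 0.0894 in the control livers, 39.7, 85.7 and 148 in the phloridzin livers, and 0.0318, 0.0115 and 0.0527 with CCl4 alone. Among the silibinin livers it measured 0.0488, 0.0187 and 122. It was thus present in 4 livers and near 0 in the other 8, with nothing between, and the table holds a single transcript for it. The log2 fold change was 6.25 (SE 1.47, adjusted p = 0.035), and the call was lost whichever of the 6 livers was left out. Why 1 silibinin liver shared this level was not tested. Phloridzin's known targets were near 0 in liver: Slc5a1 measured between 0.148 and 0.419 and Slc5a2 between 0.0889 and 0.291 in the 6 livers, both under the filter on low values. Of the 30 glucose handling genes tested 1 rose, where 1.7% of all genes did. This was Pck2, the mitochondrial enzyme of gluconeogenesis (1.07, adjusted p = 0.034), and that call was lost without phloridzin liver 1 and without each control liver.

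Conjugation enzymes rose in single genes only. Of 41 phase II genes 3 were up, with a median of 0.10, and 2 of the 3 had their highest level by far in phloridzin liver 1. Without that liver 1 of the 41 was up, with a median of 0.18. Gstm3, a glutathione transferase of the mu class, measured 5.68, 4.08 and 4.58 in the control livers and 516, 60.3 and 45.1 in the phloridzin livers, and Gsta1, of the alpha class, measured 0.314, 1.89 and 0 against 120, 10 and 8.35. Every phloridzin liver was above every control liver for both, and liver 1 exceeded the other 2 several times over. The log2 fold changes were 4.30 (SE 1.11, adjusted p = 0.048) and 3.89 (SE 0.87, adjusted p = 0.029). The call of Gstm3 was lost without phloridzin liver 1 or 2, and both calls were lost whichever control liver was left out. Of 27 NRF2 target and glutathione genes 0 were DE, and their median was 0.55 (0.58 for CCl4 alone minus control), but 0.13 without phloridzin liver 1. Gpx4, the peroxidase that protects membranes from ferroptosis, measured 41.7, 164 and 49.0 against 246, 265 and 158, groups that overlapped (1.63, adjusted p = 0.23). With CCl4 alone it measured 94.2, 21.6 and 19.3, below every phloridzin liver (phloridzin minus CCl4 alone 2.63, adjusted p = 0.045). Its fragments were divided over transcripts differently between livers. For 1 transcript the phloridzin livers held 83.4, 0.797 and 66.3, the control livers 16.1, 61.1 and 0.229, and those with CCl4 alone 0.59, 0.32 and 0.384. The part of this division in the difference was not tested.

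Cell division genes were raised by an amount that differed between livers. The 32 proliferation genes summed to 39.4, 38.8 and 40.5 in the control livers, 410, 97 and 75.6 in the phloridzin livers and 124, 125 and 136 with CCl4 alone. Phloridzin liver 1 was thus above every liver with CCl4 alone, and livers 2 and 3 were below them and above control. Of the 32 genes 7 rose (1.7% of all genes did), 0 fell and the median was 1.39. Cdc20, an activator of the anaphase complex, measured 0.0471, 0.13 and 0.218 against 45.5, 5.16 and 4.94 (3.4, SE 0.64, adjusted p = 0.015), and Ccnb1, the mitotic cyclin B1, rose by 2.89 (adjusted p = 0.021), both calls being lost without control liver 1 or 2. Mki67, the proliferation antigen, was higher in every phloridzin liver without passing the test (1.75, adjusted p = 0.065). Leaving out phloridzin liver 1 gave a median of 0.73 and 9 DE genes. The count was 1 without control liver 1 or control liver 2, 3 without control liver 3 and 15 without phloridzin liver 3, and 0 with only the 6 livers in the fit. Cdkn2c, an inhibitor of the cyclin D kinases, measured 2.34, 1.95 and 2.47 in the control livers, 9.15, 7.15 and 5.41 in the phloridzin livers and 2.57, 2.29 and 3.02 with CCl4 alone. It was as high in the silibinin livers, at 6.94, 9.21 and 7.79. The phloridzin livers were above control and CCl4 alone without overlap, by 1.32 against control (SE 0.17, adjusted p = 0.0044) and 1.16 against CCl4 alone (adjusted p = 0.0025). Cdkn2c and Phlda3, a p53 target that restrains Akt (1.25, adjusted p = 0.014), were the 2 risers of 23 p53 and growth arrest genes, and Phlda3 lost its call without control liver 2.

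Stmn1 and Ckap2, both proteins of the microtubule cytoskeleton, were among the largest rises (2.72 and 2.86), again with the highest level in phloridzin liver 1 (38.3 against 9.90 and 6.12 for Stmn1). Of 11 tubulins, Tubb6 and Tubb5 rose (2.22 and 1.06), and 0 of 11 did whichever control liver was left out, while Tubb5 also lost its call without phloridzin liver 1. The call of Stmn1 was lost without each control liver and without phloridzin liver 1 or 2, and that of Ckap2 without each control liver. Of 9 bile duct markers tested, 2 rose: Krt19, the keratin of cholangiocytes, at 0.61, 0.649 and 0.744 against 3.39, 1.61 and 3.28 (1.13, SE 0.20, adjusted p = 0.011), and Bicc1, an RNA-binding protein (1.01, adjusted p = 0.0042). Both lay above control in every phloridzin liver at a low level, and both calls were lost without phloridzin liver 1, that of Bicc1 also without control liver 1 or 2. Cd34, an endothelial and progenitor antigen, was the only riser of 17 endothelial markers (1.3, adjusted p = 0.022), whose median was 0.18, and lost its call without phloridzin liver 1 or 2 and without control liver 1 or 2.

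Lipid synthesis was high at 1 enzyme above all. Scd1, which makes monounsaturated fatty acids, measured 19.8, 25.8 and 25.0 in the control livers, 277, 250 and 175 in the phloridzin livers and 451, 230 and 194 with CCl4 alone. The phloridzin livers were far above control and overlapped with CCl4 alone (3.24 against control, SE 0.31, adjusted p = 0.00092; -0.24 against CCl4 alone, adjusted p = 0.66). Of 34 cholesterol and fatty acid synthesis genes 3 rose, 0 fell and the median was 0.55. Idi1, of the isoprenoid route, rose by 1.73 (adjusted p = 0.013) and Fdps, the farnesyl diphosphate synthase, by 1.36 (adjusted p = 0.039). Only 1 of the 34 was DE without control liver 2, where Idi1 and Fdps lost their calls. The call of Fdps was lost in every leave-one-out run but that of control liver 1, and its most abundant single transcript gave -0.85. The 32 fatty acid oxidation genes had a median of -0.07, and 0.12 with FPKM left unscaled, a change of sign. Abcd2, a peroxisomal fatty acid transporter, rose by 1.80 (adjusted p = 0.027), and not without control liver 1, 2 or 3 or phloridzin liver 2. Abcd2 and Atp6v0d2, a vacuolar proton pump subunit (1.5, adjusted p = 0.005), were the 2 risers in the list of female-biased liver genes, where Cyp2c69 was the 1 that fell. Fitm1, which partitions fat into droplets, fell from 12.4, 18.9 and 11.9 to 1.31, 1.21 and 0.435 (-2.96, SE 0.22, adjusted p = 0.00016), and Moxd1, a monooxygenase-like protein, fell by 3.35 (adjusted p = 0.0042). Fabp4, a fatty acid binding protein of macrophages and capillaries, was the only DE gene of 19 for lipid droplets and uptake (1.04, adjusted p = 0.009), and not without control liver 2.

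The 26 acute phase genes had a median of -0.94 with 1 DE member, Saa4, a constitutive serum amyloid (-1.87, adjusted p = 0.035), and the liver medians were -1.69, -1.08 and 0.07, so phloridzin liver 3 was at the control level. Leaving out phloridzin liver 1 gave a list median of -0.44. Among 34 complement and coagulation genes F5, coagulation factor V, fell from 23.5, 82.8 and 122 to 7.26, 11.3 and 22.8 (-2.24, SE 0.58, adjusted p = 0.048), with control liver 1 just above phloridzin liver 3. The calls of Saa4 and F5 were lost without phloridzin liver 1 or 2 and without control liver 2 or 3, that of Saa4 also without control liver 1, and the complement list's median of -0.20 was -0.01 with FPKM left unscaled and -0.05 without phloridzin liver 1. In the interferon list 1 of 24 rose, where 1.7% of all genes did. This was Gbp2, a GTPase of infected cells, at 1.47, 1.40 and 1.14 against 14.3, 4.83 and 5.38 (1.83, adjusted p = 0.026). Its call was lost without phloridzin liver 1 and without each control liver as well. Without phloridzin liver 3, 4 of the 24 rose. The list's median was 0.61, and 0.07 without phloridzin liver 1.

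Red cell transcripts were lower in the phloridzin livers. Of 6 erythroid markers tested (8 in the table) 2 fell, 0 were at 0 in all 6 livers, and the 8 summed to 1210, 1260 and 1170 in the control livers, 282, 639 and 931 in the phloridzin livers and 686, 737 and 502 with CCl4 alone. The phloridzin and control groups did not overlap, and phloridzin liver 1 was lowest. Their most abundant gene was Hbb-bs, a beta globin, at 701, 736 and 650 against 86.1, 480 and 621, not DE (-1.23, adjusted p = 0.28). Hba-a1, an alpha globin, fell by 1.65 (adjusted p = 0.017) and Slc4a1, the red cell anion exchanger, by 1.05 (adjusted p = 0.015). Without control liver 1, 0 of the 6 were DE, and 1 was without phloridzin liver 2. Without control liver 3, Hba-a1 lost its call, and Slc4a1 was under the filter on low values and was not tested. The part of blood content in the other results was not tested.

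**Figure D5:**
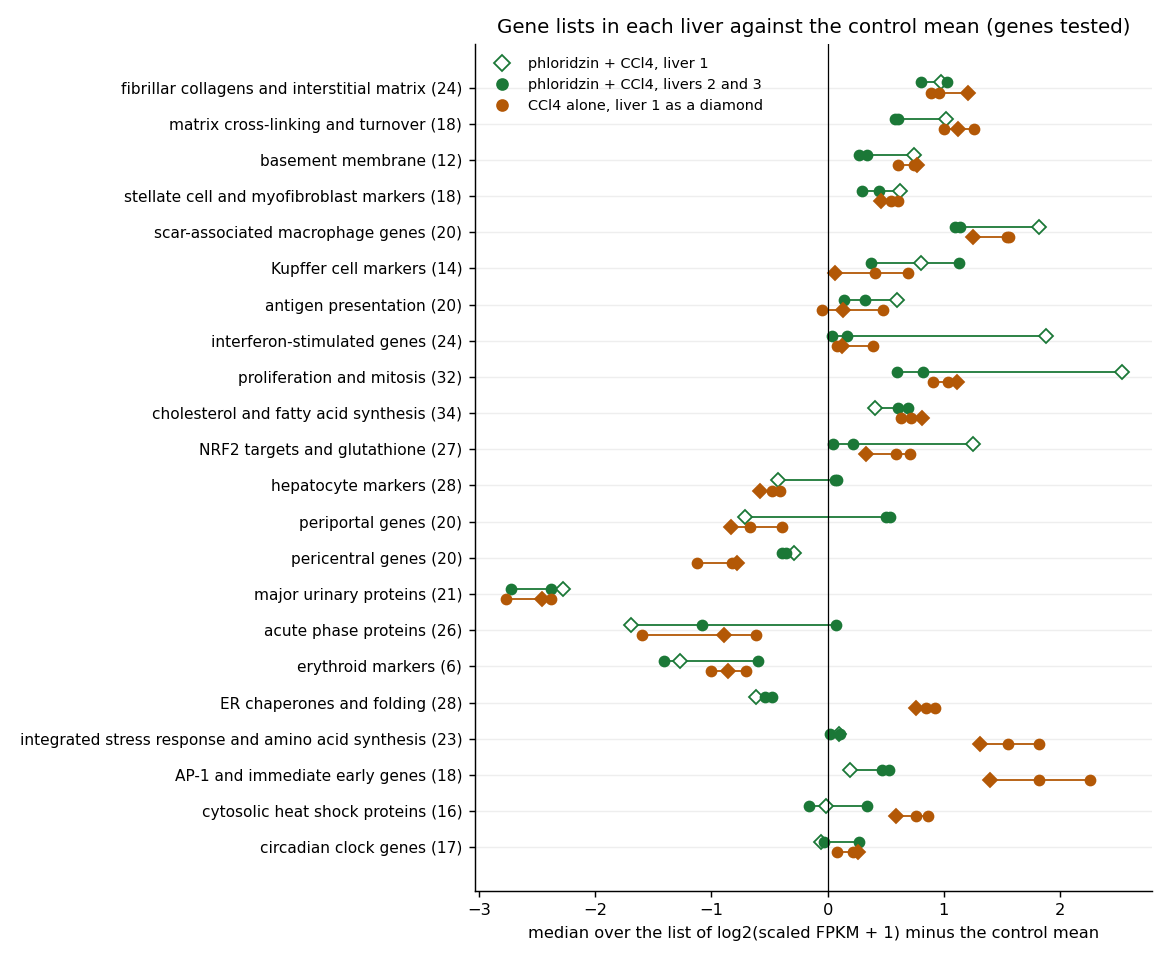
For 22 gene lists (genes tested in brackets), each symbol is the median over the list of log2 of scaled FPKM + 1 minus the control mean, for 1 liver with phloridzin and CCl4 (green, liver 1 as an open diamond) or with CCl4 alone (orange, liver 1 as a diamond); lines join the livers of a group, and 0 is the control mean. The phloridzin livers lie with CCl4 alone for fibrillar matrix (0.80 to 1.03) and major urinary proteins (-2.72 to -2.28), near 0 for the integrated stress response (0.02 to 0.11) and on the other side of 0 for ER folding (-0.62 to -0.48).

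Several lists had no DE member. Of 23 iron and metallothionein genes, 17 circadian clock genes, 35 cytosolic ribosomal proteins and 16 reference genes of every cell, 0 were DE in each. With 2.14% of all genes DE, a count of 0 does not set lists of these sizes apart. The medians were -0.11, -0.03, 0.23 and 0.08, against 0.04 over all genes. The ribosomal protein genes nevertheless leaned upward: 31 of 35 had a positive log2 fold change, and they summed to 3780, 3800 and 3810 in the control livers and 5550, 4500 and 4130 in the phloridzin livers, without overlap. The medians of the iron and clock lists changed sign with FPKM left unscaled, to 0.03 and 0.15.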

How the data were processed

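Total RNA of 12 livers had been sequenced, and the authors deposited FPKM for 169430 transcripts without correction for library composition. The unit is not named and was read from the values: at least 98.6% of low values were whole multiples (within 0.05) of 1 step per liver, which gives the depth (83.7 to 110.9 M fragments per library). The submitters' processing notes name HISAT2 2.1.0, StringTie 1.3.3b, DESeq 1.28.0, FastQC 0.11.5, bcl2fastq and build mm10, and 98.1% of Ensembl positions matched GENCODE M21 (GRCm38). FPKM was summed over each of 24296 gene symbols and the livers were scaled by median ratios. Genes with a mean scaled FPKM of at least 0.5 over the 12 livers were fitted as log2(value + 1) by limma 3.58.1 (R 4.3.3) with a trend in the variance, 4 groups and no covariate. P-values are two-sided, adjusted by Benjamini-Hochberg across all genes tested (DE at adjusted p under 0.05 and log2 fold change beyond 1). They measure the spread between these samples, since the labels do not state that each is a separate animal. An exact permutation test of 3 against 3 cannot go below p = 0.1. Named genes are the 12 largest rises and 12 largest falls among DE genes with a mean of at least 1 and no overlap between groups, leaving out predicted genes and pseudogenes, up to 4 DE members of each of 43 hand-written lists (959 of 968 genes found), the 2 most abundant members of lists with fewer than 2, and a fixed panel; further members named as examples were chosen after their values were seen. Members and lists were chosen with earlier results of these data known. Alternatives covered scaling, pseudocount, filters, the livers in the fit, the replicate block, 1 transcript per gene, robust variance, the fold cutoff and each of the 6 livers left out, and, chosen after seeing the data, protein-coding genes only. The fit was tested on simulated data. Transcripts without a symbol entered no gene value. Promoters are from RefSeq (GRCm38.p6). Python 3.11.15, numpy 2.4.6, pandas 2.3.3, scipy 1.17.1, matplotlib 3.10.9 and the R package data.table (1.17.8) were used.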

Additional observations from a re-analysis of the deposited data

Results flagged for a closer look

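Transcripts without a gene symbol were outside the gene values of the report and were tested on their own, 23465 of them. In the phloridzin livers 22 were higher than in control (0.0938%) and 40 were lower (0.17%). The NONCODE transcript NONMMUT034843.2 measured 263, 532 and 219 in the control livers and 3170, 3370 and 2310 in the phloridzin livers (log2 fold change 3.21, adjusted p = 0.0096). It lies on the same strand within Scd1 (chr19:44394455-44397265) and ends with it, and its level is larger than that given for Scd1 in the report. NONMMUT006134.2 (2.03, adjusted p = 0.0044) lies on the same strand within Bicc1. NONMMUT117757.1 on chromosome 4 (1.99, adjusted p = 0.038) overlaps no gene of the table. Which gene the fragments of such transcripts came from was not tested.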

How the results depend on the processing

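The number of DE genes (281: 223 up, 58 down) moved by over 1.5 times with a pseudocount of 0.1 (775, 707 up), with only the 6 livers in the fit (97: 79 up, 18 down), with the most abundant transcript per gene (166: 130 up, 36 down) and with no fold cutoff (825: 672 up, 153 down). With FPKM left unscaled, 360 were up and 38 down, so 90.5% of DE genes were higher instead of 79.4%, and the median log2 fold change of all genes was 0.18 instead of 0.04; changes are best read relative to that shift. Leaving out 1 liver gave 172 to 439 DE genes, 133 to 369 up and 39 to 70 down. Fdps turned to -0.85 with its most abundant transcript. Apart from the fewer livers or the cutoff itself, the cause of these moves was not tested. Of 77 named DE genes, 18 were DE in every alternative run (among them Col1a1, Col3a1, Lum, Mmp2, Gpnmb, Scd1, Glul, Mup1, Mup2 and Cyp2c37) and 34 without each liver in turn; 23 were no longer DE without phloridzin liver 1, and 52 with only the 6 livers in the fit. With the replicate number as a block, 231 genes were DE (186 up, 45 down), 228 of them shared with the fit without a block; livers of the same number were not alike (correlations of -0.066, 0.056 and -0.029 between their deviations), so the numbers do not pair samples and the block is no gain. Depth was similar in the 6 livers and limits genes near 0 the most.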

Other observations

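A few genes outside the lists stood out once the values were seen, and none of them was tested further. Klhdc7a, a kelch-domain protein, was at 0 in all control livers, all livers with CCl4 alone and all silibinin livers, and measured 3.18, 1.85 and 2.71 in the phloridzin livers (adjusted p = 0.0001). Pcgf6, a subunit of a noncanonical Polycomb complex, measured 4.21, 3.46 and 4.59 in the control livers, 4.34, 6.78 and 6.95 with CCl4 alone and 3.68, 3.61 and 4.62 with silibinin, but 0.644, 0.7 and 0.714 with phloridzin (-1.59 against control, adjusted p = 0.0016). In both genes the 3 phloridzin livers lay apart from the other 9.

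Among the transcripts that the authors assembled, 1 locus of 90 transcripts held more signal than any other, 29600, 59700 and 69300 scaled FPKM in the control livers, 18500, 5940 and 4910 with phloridzin, and 4110, 3190 and 3400 with CCl4 alone. The table gives it no position, so its gene is not known from these data.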
